A study of Mus musculus with 4 samples.

Results

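Described here are 42 genes of the Wnt pathway in the cerebral cortex of mouse embryos that lack functional Pax6, out of 22770 genes in the deposited expression table. The members were picked by gene name as Wnt ligands, R-spondins, receptors, secreted inhibitors, parts of the β-catenin destruction complex and nuclear effectors or targets, and each name matched 1 row. RNA was sequenced in 4 libraries of cortex dissected at embryonic day 16.5: 2 from Pax6 sey/sey embryos, homozygous for the small eye allele of the transcription factor gene Pax6, and 2 from wild-type littermates, all on a mixed background of C57BL/6J, 129S6 and CD1. The labels name no treatment, and the mutation is present in the whole embryo, not in cortex alone. The labels do not say whether the libraries of a group came from separate embryos. Sex-linked RNA, given below, sets the 2 mutant libraries apart as different embryos but cannot decide this for the wild types. The p-values therefore measure only the spread between these libraries, which may be partly technical and in the mutants includes a difference of sex.

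Wnt proteins are secreted signals that bind Frizzled receptors together with the co-receptors Lrp5 and Lrp6. In the canonical branch this stops a destruction complex, built on Axin and Apc, from breaking down β-catenin, which then acts in the nucleus with TCF/LEF factors. In the embryonic forebrain Wnt signals come from the dorsal midline and from cortical cells themselves, and the pathway is known for its part in dorsal patterning, progenitor division and vessel growth. The antihem, a strip of progenitors at the lateral border of the cortex that depends on Pax6, is known as a source of the secreted Wnt inhibitor Sfrp2.

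Values are FPKM, fragment numbers divided by exon length and by library size, as the authors deposited them. Because FPKM is per length, levels of different genes can be set side by side. Column totals lay between 579698 and 593256 FPKM. On a gene with 2 kb of exon, 1 fragment was worth about 0.0466 to 0.0756 FPKM. Values under 0.5 FPKM thus rest on few fragments for genes of that length or shorter, and on more for longer ones. Pax6 itself stood at 101 and 120 FPKM in the mutants, against 28.8 and 27.0 FPKM in the wild types. The small eye allele alters the coding sequence without removing the gene, so the RNA level cannot check the genotype labels. Mutant library 1 stood apart in sex-linked RNA, with Xist at 350 FPKM against 0.0788 to 0.224 FPKM in the other 3 libraries. The Y-linked gene Ddx3y was listed at 0 there, against 23.3 FPKM in mutant library 2 and 17.6 and 16.5 FPKM in the wild types. Mutant library 1 thus reads as female and the other 3 libraries as male, so sex is not balanced between the genotypes. Mutant library 1 also held more RNA of meningeal fibroblasts. The 10 markers of that cell type summed to 31.7 FPKM there and 8.06 FPKM in mutant library 2. In the wild types they summed to 5.31 and 3.58 FPKM, and 10 of 10 were highest in mutant library 1. The cortical identity of the tissue was checked with Emx1, a factor of dorsal cortical cells, which stood at 17.2 and 15.7 FPKM in the mutants and 29.0 and 29.9 FPKM in the wild types, while choroid plexus markers summed to 1.19 to 2.10 FPKM and cortical hem markers to 0.342 to 1.78 FPKM. A set of 8 markers of subpallial progenitors and interneurons summed to 692 and 798 FPKM in the mutants, against 118 and 95.9 FPKM in the wild types, and 8 of 8 rose.

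The secreted inhibitors Sfrp1 and Sfrp2 were called lower in the mutants, and no member was called higher. Genotype was tested on log2(FPKM + 0.5) with limma across all 15399 genes that had at least 0.5 FPKM in 2 or more libraries, with Benjamini-Hochberg adjusted p-values and a threshold of 0.05. Of the 42 members 31 entered this test, 2 were called lower and 0 higher, where 1.46% of all tested genes were called lower and 2.02% higher, or 3.48% in either direction. In 30 of the 31 every library was above 0.5 FPKM, and 0 entered through 1 genotype alone. The median log2 fold change of the tested members was -0.11, beside 0.00062 over all tested genes, and the median of its absolute size was 0.28, beside 0.17. For 18 of the 31 tested members both mutants lay on one side of both wild types, which also held for 51.6% of all tested genes and is therefore close to the background. Of the 18, 7 were higher and 11 lower in the mutants, where 25.8% of all tested genes were separated in each direction. An unadjusted p under 0.05 was found for 9 of the 31, 3 higher and 6 lower, against 19.5% of all tested genes. A log2 fold change below 0 was found for 19 members, against 49.9% of all tested genes, and 9 members had one beyond 0.5 in either direction, against 14.9%. The exact two-sided permutation test on any single gene cannot go below p = 0.333 with 2 against 2 libraries.

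**Figure D1:**
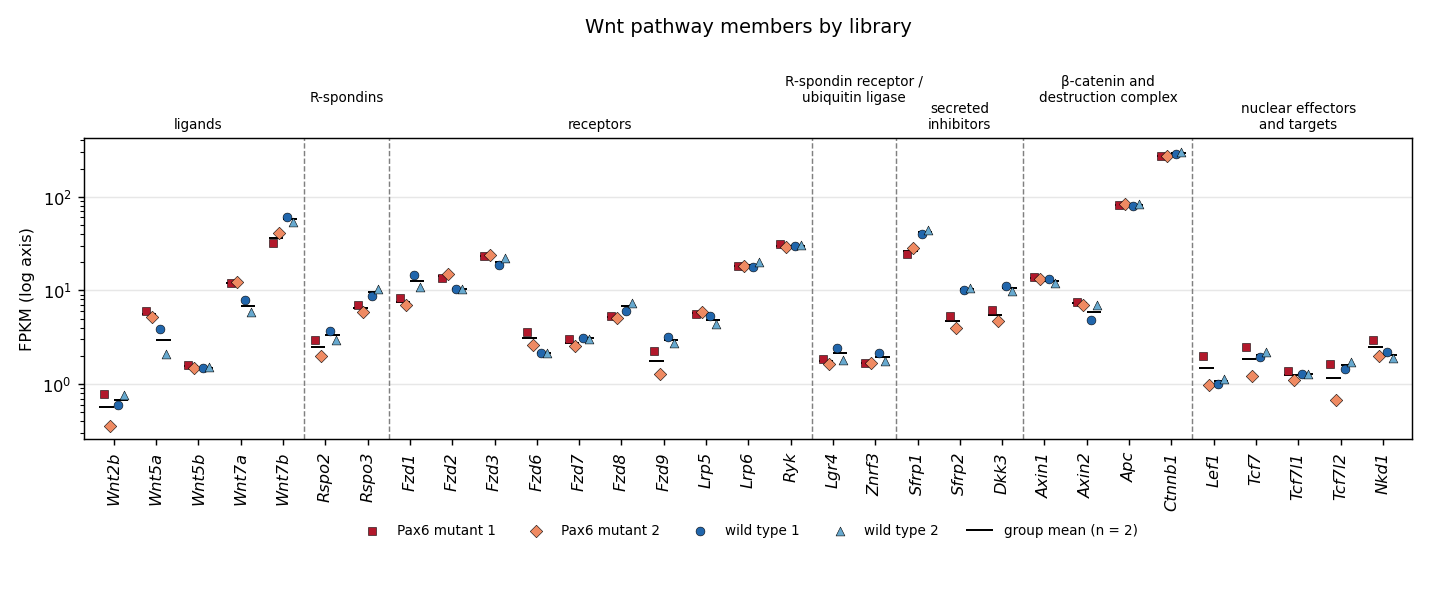
FPKM on a log axis of the 31 tested members in each of the 4 libraries, grouped by role, with mutants left of wild types and the mean of each genotype (n = 2) as a black line. Sfrp1 lies at 24.7 and 28.3 FPKM in the mutants and at 40.1 and 44.1 FPKM in the wild types, while Ctnnb1 and Apc sit at nearly the same height in all 4 libraries.

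**Figure D2:**
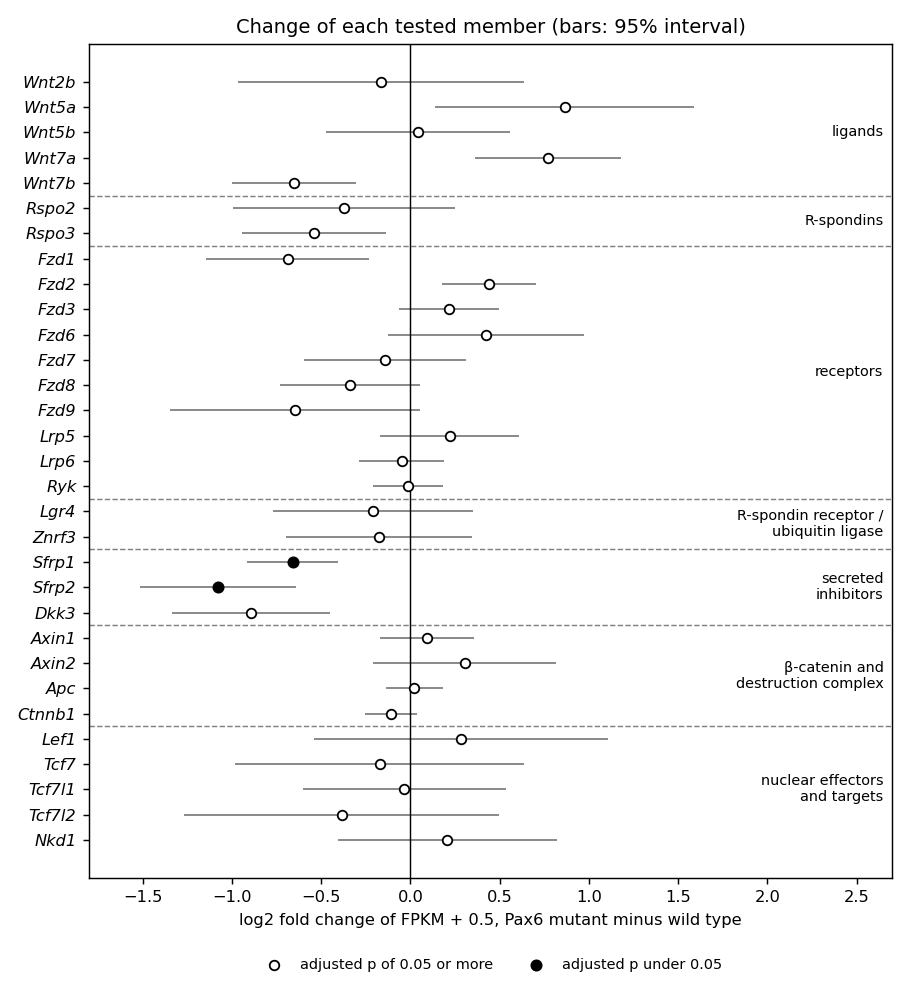
Log2 fold change of FPKM + 0.5, Pax6 mutant minus wild type, of the 31 tested members by role, with 95% intervals from limma as bars. Filled points mark Sfrp1 (-0.66) and Sfrp2 (-1.08), the members with an adjusted p under 0.05.

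Among the ligands, Wnt7b made up most of the Wnt RNA in every library, with a lower level in mutants than in wild types that did not pass the test. Wnt7b, a ligand of cortical neurons that acts through the canonical branch in vessel growth, had 32.1 and 40.9 FPKM in the mutants and 60.6 and 53.9 FPKM in the wild types. The groups did not overlap, and the log2 fold change was -0.65 (SE 0.14, adjusted p = 0.0814 in limma). In the authors' deposited table Wnt7b has p = 0.0400, and it is the only member under 0.05 there, where 1.83% of all 22770 genes are under that value. On GRCm38 Wnt7b spans positions 85535437 to 85582473 of chromosome 15 and shares exon sequence with the antisense gene AU022754. Strand use is not stated, so reads of the 2 genes cannot be told apart. AU022754 had 1.01 and 0.566 FPKM in the mutants and 1.84 and 1.31 FPKM in the wild types, far below Wnt7b itself. Emx1 was also lower in both mutants, as given above, and whether this bears on Wnt7b was not tested.

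Wnt7a, the close relative of Wnt7b that is typical of ventricular zone progenitors, stood the other way round. It had 11.9 and 12.1 FPKM in the mutants and 7.83 and 5.93 FPKM in the wild types, a log2 fold change of 0.77 (SE 0.16, adjusted p = 0.0803 in limma). Both mutants were above both wild types. Wnt7b was 2.704 and 3.37 times the level of Wnt7a in the mutants, against 7.73 and 9.10 times in the wild types, a description with no test of its own. Wnt5a, the ligand best known for the β-catenin-independent branch, had 6.00 and 5.21 FPKM in the mutants and 3.83 and 2.08 FPKM in the wild types (log2 fold change 0.86, SE 0.28, adjusted p = 0.198 in limma). The wild types differed from each other more than the mutants did, and without wild-type library 2 the log2 fold change was 0.49. Wnt5a overlaps the antisense gene Gm2670, which stayed under 0.5 FPKM in all 4 libraries.

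The 7 ligands together summed to 52.4 and 60.2 FPKM in the mutants, against 74.4 and 64.2 FPKM in the wild types. Wnt7b made up 61.3% and 68.0% of this sum in the mutants and 81.5% and 84.0% in the wild types. Wnt7a made up 22.7% and 20.2% in the mutants and 10.5% and 9.23% in the wild types, and Wnt5a 11.5% and 8.65% in the mutants and 5.15% and 3.24% in the wild types. In all 3 shares the genotypes did not overlap. The shares are parts of 1 sum, so a lower Wnt7b share leaves higher shares for the other ligands, and the 3 are not separate observations. Wnt5b, a relative of Wnt5a, showed little spread, with 1.61 and 1.501 FPKM in the mutants and 1.49 and 1.51 FPKM in the wild types. The ligands of the dorsal midline were scarce. Wnt2b lay between 0.360 and 0.783 FPKM with overlapping groups, Wnt3a was listed at 0 except for 0.0569 FPKM in mutant library 2, and Wnt8b was listed at 0 except for 0.0296 FPKM in wild-type library 1. Of the 5 cortical hem markers, which include the ligand Wnt9a, 0 reached the filter of the test. Whether the low hem RNA bears on the levels of these ligands was not tested. FPKM of bulk tissue cannot tell fewer cells of a type from less RNA per cell, here and below.

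**Figure D3:**
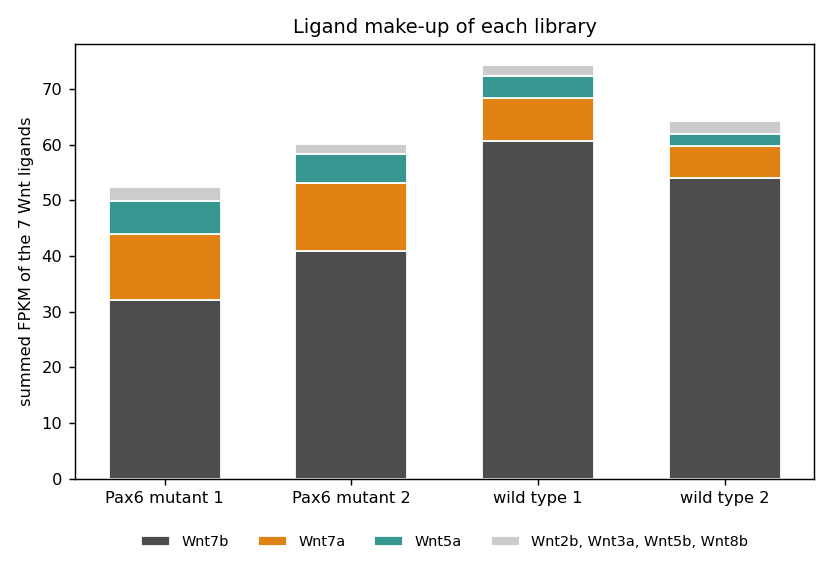
Summed FPKM of the 7 Wnt ligands in each library, mutants on the left, split into Wnt7b, Wnt7a, Wnt5a and the other 4 ligands. Wnt7b fills 61.3% and 68.0% of the bar in the mutants and 81.5% and 84.0% in the wild types.

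R-spondins are secreted proteins that strengthen Wnt signals by removing the ubiquitin ligases Rnf43 and Znrf3 from the cell surface, through the receptors Lgr4 and Lgr5. Rspo3 had 7.01 and 5.87 FPKM in the mutants and 8.72 and 10.5 FPKM in the wild types. The groups did not overlap, with a log2 fold change of -0.54 (SE 0.16, adjusted p = 0.162 in limma), and Rspo3 shares exon sequence with the antisense gene Gm48159. Rspo2 had 2.98 and 1.97 FPKM in the mutants and 3.67 and 2.96 FPKM in the wild types, so the groups overlapped, and Rspo1 stayed under 0.06 FPKM in all 4 libraries. Their receptors and ligases were low. Lgr4 lay between 1.64 and 2.42 FPKM and Znrf3 between 1.66 and 2.15 FPKM, and neither passed the test, with adjusted p = 0.658 and 0.695 in limma. Rnf43 stayed at 0.161 FPKM or less and was not tested.

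Lgr5, an R-spondin receptor and a common target of the pathway, lay just outside the filter. It had 0.827 and 0.367 FPKM in the mutants and 0.158 and 0.248 FPKM in the wild types, so only mutant library 1 exceeded 0.5 FPKM. Wnt2b, just inside the filter, exceeded it in 3 libraries. Mutant library 1 was also the library with the meningeal RNA described above, and whether this bears on Lgr5 was not tested.

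The summed Frizzled RNA of mutants and wild types overlapped, while single receptors lay on different sides. The 9 Frizzled members summed to 59.8 and 57.3 FPKM in the mutants, against 58.2 and 59.1 FPKM in the wild types. Of the 7 tested, 0 passed the limma threshold and 2 had an unadjusted p under 0.05, against 3.48% and 19.5% of all tested genes. Fzd3, the Frizzled with the highest level, which is needed for axon tracts of the forebrain, had 23.3 and 23.6 FPKM in the mutants and 18.4 and 22.0 FPKM in the wild types (log2 fold change 0.22, 95% interval -0.06 to 0.49, adjusted p = 0.359 in limma). Fzd1 had 8.20 and 6.98 FPKM in the mutants and 14.4 and 10.8 FPKM in the wild types (log2 fold change -0.69, SE 0.18, adjusted p = 0.129 in limma). Fzd2, its close relative, had 13.6 and 15.0 FPKM in the mutants and 10.3 and 10.4 FPKM in the wild types (log2 fold change 0.44, SE 0.10, adjusted p = 0.107 in limma). Neither pair of groups overlapped, so Fzd1 was below Fzd2 in both mutants, at 0.603 and 0.467 times its level, and above it in both wild types, at 1.40 and 1.04 times.

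Fzd9 had 2.27 and 1.28 FPKM in the mutants and 3.20 and 2.76 FPKM in the wild types (log2 fold change -0.65, SE 0.27, adjusted p = 0.287 in limma), and its value moved to -0.33 without mutant library 2. Fzd8 and Fzd7 had log2 fold changes of -0.34 and -0.14 and Fzd6 one of 0.43, with groups that did not overlap but adjusted p between 0.313 and 0.717 in limma. Fzd6 shares exon sequence with Gm26704 on the other strand, so its value is uncertain. Without mutant library 1 the log2 fold change of Fzd6 was 0.22, and without wild-type library 2 that of Fzd8 was -0.21. Fzd5, a receptor under the filter, had 0.0709 and 0.128 FPKM in the mutants and 0.307 and 0.454 FPKM in the wild types, and Fzd10 reached 0.458 FPKM only in mutant library 1 and stayed at 0.118 FPKM or less elsewhere. These 2 were not tested.

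Ryk and Lrp6 gave narrow intervals around 0, and Lrp5 a wider one. Ryk, a Wnt receptor of the kinase-like type, had 30.9 and 28.8 FPKM in the mutants and 29.7 and 30.5 FPKM in the wild types. Its log2 fold change was -0.01, with a 95% interval of -0.21 to 0.18. Lrp6, the main canonical co-receptor, had 18.2 and 18.2 FPKM in the mutants and 17.9 and 19.9 FPKM in the wild types (log2 fold change -0.05, 95% interval -0.29 to 0.19). Lrp5 had 5.63 and 5.84 FPKM in the mutants and 5.31 and 4.43 FPKM in the wild types (log2 fold change 0.22, 95% interval -0.17 to 0.61). None of the 3 passed the test, with adjusted p from 0.5001 to 0.949 in limma.

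The secreted inhibitors were the group with calls, and its 3 tested members lay on the same side. Sfrp1 and Sfrp2 are secreted Frizzled-related proteins, which bind Wnt proteins outside the cell. Sfrp1 fell to 24.7 and 28.3 FPKM in the mutants, against 40.1 and 44.1 FPKM in the wild types (log2 fold change -0.66, SE 0.10, adjusted p = 0.0407 in limma). Sfrp2 fell to 5.38 and 4.02 FPKM in the mutants, against 10.1 and 10.7 FPKM in the wild types (log2 fold change -1.08, SE 0.17, adjusted p = 0.0445 in limma). Every mutant library was below every wild-type library for both genes. Dkk3, a member of the Dickkopf family by sequence, had 6.20 and 4.70 FPKM in the mutants and 11.2 and 9.79 FPKM in the wild types. It missed the threshold, with a log2 fold change of -0.89 (SE 0.17, adjusted p = 0.0687 in limma).

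The 6 inhibitors together summed to 36.9 and 37.4 FPKM in the mutants and 61.8 and 64.9 FPKM in the wild types, so that the genotypes did not overlap, and Sfrp1 made up 64.9% to 75.8% of the sum in each library. Frzb, another Frizzled-related protein, lay between 0.308 and 0.485 FPKM, and Wif1 and Dkk1, inhibitors of Wnt proteins and of Lrp co-receptors, were listed at 0 in at least 1 library of each genotype and reached at most 0.182 FPKM. These 3 were not tested. In the authors' deposited table Sfrp1 has p = 0.0727 and Sfrp2 p = 0.210. Both calls rest on all 4 libraries. For Sfrp1 the adjusted p in limma was 0.131 without mutant library 1, 0.147 without mutant library 2, 0.185 without wild-type library 1 and 0.243 without wild-type library 2, with log2 fold changes of -0.76 to -0.56. For Sfrp2 it was 0.0849, 0.162, 0.218 and 0.259 in the same order, with log2 fold changes of -1.27 to -0.89.

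On GRCm38 Sfrp1 spans positions 23411502 to 23449632 of chromosome 8, and Sfrp2 spans 83766321 to 83774316 of chromosome 3. Sfrp2 shares exon sequence with the antisense gene Gm26771, which had 0.568 and 0.499 FPKM in the mutants and 0.991 and 1.01 FPKM in the wild types, so its value carries this uncertainty. The antihem, where Sfrp2 is known to be expressed, was followed with 4 other genes, Fgf7, Tgfa, Nrg1 and Nrg3. Dbx1, also listed as a marker, was not read. The 4 summed to 12.8 and 13.6 FPKM in the mutants and 17.0 and 16.3 FPKM in the wild types. Most of this was Nrg3, at 7.16 and 8.18 FPKM in the mutants and 10.3 and 9.98 FPKM in the wild types. Fgf7 and Tgfa had log2 fold changes of -0.60 and -0.46, and Nrg1 one of 0.03 with overlapping groups. In limma 0 of 4 were called and 1, Nrg3, had an unadjusted p under 0.05. Over all tested genes these shares were 3.48% and 19.5%. The 6 radial glial markers, of cells where Sfrp1 is known to be expressed, lay on both sides of 0, with 3 above, 3 below and a median log2 fold change of 0.00037, and with 0 of 6 called in limma and 2 at an unadjusted p under 0.05. Whether the lower sum of the 4 antihem genes, mostly Nrg3, bears on Sfrp2 was not tested.

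Promoter sequences are shown for 4 members to set a called inhibitor and a ligand beside common targets of the pathway. Each is the 250 bases before the transcription start in RefSeq on GRCm38.p6, written 5′ to 3′ on the gene's own strand, and capitals mark matches to the TCF/LEF motif, searched as CTTTGAT and CTTTGAA on both strands. Sfrp2 is the called inhibitor (chr3:83766071-83766320, plus strand), Wnt7a a ligand that was higher in both mutants without passing the test (chr6:91411354-91411603, minus strand), and Axin2 (chr11:108920099-108920348, plus strand) and Sp5 (chr2:70474673-70474922, plus strand) are target genes.
Sfrp2: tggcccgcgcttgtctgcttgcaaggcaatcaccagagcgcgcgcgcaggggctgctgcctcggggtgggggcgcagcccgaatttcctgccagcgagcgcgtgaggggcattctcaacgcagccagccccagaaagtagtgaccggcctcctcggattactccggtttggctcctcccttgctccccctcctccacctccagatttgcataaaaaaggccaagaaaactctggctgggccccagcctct
Wnt7a: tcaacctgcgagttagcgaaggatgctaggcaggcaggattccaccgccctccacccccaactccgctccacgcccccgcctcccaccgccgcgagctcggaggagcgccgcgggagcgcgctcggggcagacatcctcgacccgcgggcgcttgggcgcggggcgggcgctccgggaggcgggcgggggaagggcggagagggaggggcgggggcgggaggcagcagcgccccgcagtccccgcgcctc
Axin2: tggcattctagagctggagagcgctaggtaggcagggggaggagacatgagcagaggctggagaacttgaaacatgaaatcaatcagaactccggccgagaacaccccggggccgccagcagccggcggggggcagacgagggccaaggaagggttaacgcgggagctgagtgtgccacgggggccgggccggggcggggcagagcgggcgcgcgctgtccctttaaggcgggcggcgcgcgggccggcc
Sp5: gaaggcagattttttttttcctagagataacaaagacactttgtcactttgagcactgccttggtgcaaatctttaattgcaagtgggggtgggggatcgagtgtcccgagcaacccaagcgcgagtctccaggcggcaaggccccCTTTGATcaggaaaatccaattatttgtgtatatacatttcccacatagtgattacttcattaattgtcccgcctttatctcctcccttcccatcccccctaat

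Of these 4 windows, only that of Sp5 holds the motif, 1 time, with its first base at position -104 relative to the start. The table of promoters held 26 of the 42 members in 35 windows. The motif stood in 3 of these 35 windows, those of Sp5, Dkk1 and 1 of the 3 starts of Wnt5b, and in 7.48% of all 32851 windows. The windows of Wnt7a (77.6% G and C), Axin2 (69.2%) and Sfrp2 (63.6%) were richer in G and C than the median window (52.4%), and that of Sp5 was poorer (46.0%). A match of letters is a description and shows no binding, and distal elements lie outside these windows.

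Inside the cell, β-catenin, Apc and Axin1 lay close to 0. Ctnnb1, which codes for β-catenin, lay above 98.5% of tested genes by its wild-type level. It had 271 and 273 FPKM in the mutants and 284 and 303 FPKM in the wild types (log2 fold change -0.11, 95% interval -0.26 to 0.04, adjusted p = 0.368 in limma). Its exons overlap those of Ulk4 on the other strand, so a small part of this value may belong to Ulk4. Apc, the scaffold of the destruction complex, had 81.2 and 83.6 FPKM in the mutants and 78.8 and 83.6 FPKM in the wild types (log2 fold change 0.02, 95% interval -0.14 to 0.18). Axin1 had 14.0 and 13.2 FPKM in the mutants and 13.3 and 12.1 FPKM in the wild types (log2 fold change 0.09, 95% interval -0.17 to 0.36).

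Of the 7 members that are feedback targets of the canonical branch (Axin2, Nkd1, Sp5, Lgr5, Rnf43, Znrf3 and Lef1) 4 were tested, and 0 of the 4 passed the limma threshold or had an unadjusted p under 0.05. Over all tested genes these shares were 3.48% and 19.5%, so 0 of 4 is near the background. Axin2, the feedback inhibitor most often read as a target, had 7.57 and 7.01 FPKM in the mutants and 4.82 and 6.97 FPKM in the wild types. Mutant library 2 and wild-type library 2 were nearly level, and the log2 fold change of 0.30 had a 95% interval of -0.21 to 0.82 (adjusted p = 0.474 in limma). The log2 fold change was 0.059 without wild-type library 1 and 0.55 without wild-type library 2. Axin2 shares exon sequence with the antisense gene Gm11670. Nkd1, a feedback inhibitor that binds Dishevelled, had 2.96 and 2.00 FPKM in the mutants and 2.22 and 1.89 FPKM in the wild types (adjusted p = 0.697 in limma), and Sp5, a target that codes for a transcription factor, stayed at 0.366 FPKM or less and was not tested.

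The 4 TCF/LEF factors, which carry the signal to DNA with β-catenin, were low in all libraries. Groups did not overlap for 0 of the 4, against 51.6% of all tested genes. Lef1 had 1.99 and 0.970 FPKM in the mutants and 1.01 and 1.14 FPKM in the wild types. Tcf7l2 had 1.64 and 0.684 FPKM in the mutants and 1.46 and 1.71 FPKM in the wild types, and Tcf7 had 2.49 and 1.23 FPKM in the mutants and 1.94 and 2.19 FPKM in the wild types. For all 3, mutant library 1 was at least 2 times as high as mutant library 2, and the genotypes overlapped. Tcf7l1 lay between 1.105 and 1.39 FPKM with overlapping groups. Together the 4 factors summed to 7.52 and 3.98 FPKM in the mutants and 5.68 and 6.33 FPKM in the wild types, and adjusted p was between 0.603 and 0.954 in limma. Without mutant library 2 the log2 fold change of Tcf7 was 0.23, and without mutant library 1 that of Lef1 was -0.10, each turned from its value over all libraries (-0.17 and 0.28). Mutant library 1 also held the most RNA of the meningeal markers given above and of 8 endothelial markers, of which 8 of 8 were highest there. The endothelial markers summed to 72.2 FPKM there and 56.4 FPKM in mutant library 2, against 49.7 and 48.4 FPKM in the wild types. Tcf7l2 was highest in wild-type library 2, where both marker sums were lowest. Both wild types exceeded mutant library 2 for Tcf7 and Tcf7l2. Whether either cell type bears on these factors was not tested. Lef1 and Tcf7l1 overlap antisense genes, and Tcf7 shares a deposited locus with 12 other genes.

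Outside the 42 members, 81 other genes of the pathway were read in the same fit, of which 62 were tested. Of these, 5 were called higher and 2 lower, where 2.02% of all tested genes were called higher and 1.46% lower. Those called higher were Wls, Draxin, Tle1, Tle2 and Sp8, and those called lower Tle4 and Celsr1. A further 7 genes of the list had no row and were not analysed here. The median log2 fold change of the 62 was 0.02, and both mutants lay on one side of both wild types for 40 of them, against 51.6% of all tested genes.

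Wls, which codes for the carrier that takes Wnt proteins to the cell surface, rose to 26.0 and 28.03 FPKM in the mutants, against 4.66 and 4.38 FPKM in the wild types. This is 5.97 times the mean of the wild types, with a log2 fold change of 2.45 (SE 0.11, 95% interval 2.18 to 2.73, adjusted p = 0.00390 in limma). On GRCm38 Wls spans positions 159839672 to 159938664 of chromosome 3 and shares no exon sequence with another annotated gene. Its level went with the subpallial markers given above, which was not tested further. In the authors' deposited table Wls has a ratio of 5.97 and p = 5.99e-05. The call was kept without mutant library 1 and lost without each other library: the adjusted p in limma was 0.0383 without mutant library 1, 0.0608 without mutant library 2, 0.0653 without wild-type library 1 and 0.0679 without wild-type library 2, with log2 fold changes of 2.40 to 2.51. Porcn, the enzyme that attaches the lipid Wnt proteins need before Wls can carry them, stood at 32.2 and 33.8 FPKM in the mutants and 32.7 and 35.1 FPKM in the wild types (log2 fold change -0.04, adjusted p = 0.838 in limma).

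The Groucho corepressors of the Tle family, which bind TCF/LEF and other factors when β-catenin is absent, moved in both directions. Tle1 rose to 31.6 and 37.0 FPKM in the mutants, against 20.4 and 20.3 FPKM in the wild types (log2 fold change 0.74, SE 0.10, adjusted p = 0.0344 in limma). Tle2 rose to 33.99 and 30.05 FPKM in the mutants, against 20.9 and 20.04 FPKM in the wild types (log2 fold change 0.63, SE 0.09, adjusted p = 0.0386 in limma). Tle4, which also marks deep-layer cortical neurons, fell to 30.7 and 28.8 FPKM in the mutants, against 42.1 and 42.3 FPKM in the wild types (log2 fold change -0.50, SE 0.07, adjusted p = 0.0366 in limma). The sum of Tle1 and Tle2 was 2.14 and 2.32 times the level of Tle4 in the mutants and 0.981 and 0.955 times in the wild types. Tle3 had a log2 fold change of -0.10 (adjusted p = 0.626 in limma). Tle1 and Tle2 overlap antisense genes, so their values are uncertain, and the Tle1, Tle2 and Tle4 calls were lost without any 1 library, with adjusted p from 0.0791 to 0.231 in limma.

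Celsr1, a cadherin of the planar polarity branch, fell to 4.67 and 4.77 FPKM in the mutants, against 8.95 and 10.96 FPKM in the wild types (log2 fold change -0.99, SE 0.15, adjusted p = 0.0396 in limma). Its relatives Celsr2 and Celsr3 had log2 fold changes of -0.31 and 0.14 and were not called, and Prickle1, of the same branch, had 8.25 and 7.42 FPKM in the mutants and 11.1 and 10.9 FPKM in the wild types (adjusted p = 0.118 in limma). Draxin, a secreted axon guidance protein that also binds Lrp6, rose to 47.2 and 49.2 FPKM in the mutants, against 36.5 and 36.5 FPKM in the wild types (log2 fold change 0.40, SE 0.07, adjusted p = 0.0484 in limma). Sp8, listed as a gene that responds to Wnt signals, rose to 19.1 and 24.2 FPKM in the mutants, against 2.17 and 1.40 FPKM in the wild types (log2 fold change 3.29, SE 0.22, adjusted p = 0.00845 in limma). Sp8 is also one of the 8 subpallial markers, and 8 of those 8 rose. The Draxin call was also lost with a pseudocount of 0.1 (adjusted p = 0.0506 in limma), with median-of-ratios rescaling (0.0512) and with quantile normalization (0.0532). It was lost too with low genes kept in (0.0850), with the variance trend off (0.150) and with the replicate block. Of the 13 alternatives 3 kept the Draxin call. The Celsr1, Draxin and Sp8 calls were lost without any 1 library, with adjusted p from 0.0600 to 0.253 in limma.

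Of the core transducers 0 of 19 passed the limma test in either direction, and 2 had an unadjusted p under 0.05. Over all tested genes these shares were 3.48% and 19.5%, so the count of calls is near the background. This group holds Dishevelled, Gsk3 and casein kinase genes, and its median log2 fold change was 0.02, with a range of -0.16 to 0.43. The highest was Dact1, a Dishevelled-binding protein, with 16.6 and 15.1 FPKM in the mutants and 11.5 and 11.7 FPKM in the wild types (adjusted p = 0.102 in limma). Ccnd1 and Myc, widely used as targets, had log2 fold changes of -0.16 and -0.21 and were not called.

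The uncalled other pathway genes named here were picked for large changes and groups that did not overlap. Their separation was therefore fixed by this choice, and 51.6% of all tested genes were separated in either direction. Among them were several surface or secreted proteins that lay higher in both mutants without passing the test. Adgra2 and Reck form the co-receptor that lets endothelial cells read Wnt7a and Wnt7b. Adgra2 had 3.72 and 2.12 FPKM in the mutants and 1.47 and 1.35 FPKM in the wild types (log2 fold change 0.80, SE 0.29, adjusted p = 0.222 in limma), and its log2 fold change was 0.46 without mutant library 1. Reck had 3.12 and 5.01 FPKM in the mutants and 2.47 and 2.13 FPKM in the wild types (log2 fold change 0.68, SE 0.26, adjusted p = 0.247 in limma). Reck was highest in mutant library 2, and its log2 fold change was 0.37 without that library. Ror2, a receptor for Wnt5a, had 2.23 and 1.65 FPKM in the mutants and 0.928 and 1.15 FPKM in the wild types (adjusted p = 0.229 in limma). The glypican Gpc3 had 2.45 and 1.17 FPKM in the mutants and 0.800 and 0.645 FPKM in the wild types (adjusted p = 0.259 in limma), whereas its relative Gpc4 had 11.2 and 9.47 FPKM in the mutants and 15.5 and 15.6 FPKM in the wild types (adjusted p = 0.0810 in limma). Igfbp4 and Bambi, a secreted and a membrane modulator, had log2 fold changes of 0.51 and 0.45 and were not called, with 0.30 for Igfbp4 without wild-type library 1 and 0.28 for Bambi without mutant library 1. The log2 fold change of Gpc3 was 0.87 over all libraries and 0.46 without mutant library 1. Adgra2, Gpc3, Ror2, Igfbp4 and Bambi were all highest in mutant library 1, as were the meningeal and endothelial markers given above, and whether these cells bear on the 5 genes was not tested.

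**Figure D4:**
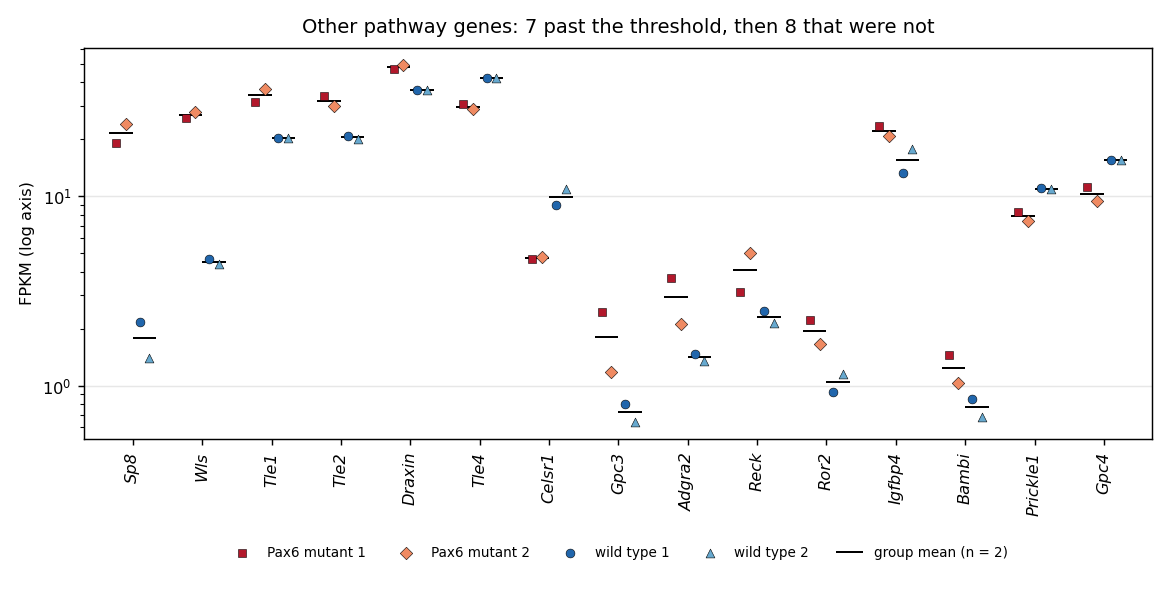
FPKM on a log axis of 15 other pathway genes in each library, with mutants left of wild types and the mean of each genotype (n = 2) as a black line. The first 7, from Sp8 to Celsr1, passed an adjusted p of 0.05, among them Wls at 26.0 and 28.03 FPKM in the mutants and 4.66 and 4.38 FPKM in the wild types. The other 8, from Gpc3 to Gpc4, did not.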

How the data were processed

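Per the file headers, the authors deposited 1 table with FPKM by gene for each of the 4 libraries. It also has a group FPKM for mutants and one for wild types, their ratio with mutants on top, and a p-value from the authors, all per the file headers. TopHat2 2.0.9, Cufflinks 2.2.1 and edgeR are listed in the submitters' processing notes with the builds GRCm38.p4 and mm10, without roles. The test behind the deposited p-value, its adjustment, RNA selection and strand use are not given in the sources used here. FPKM keeps no fragment totals. Relative depth, read from the steps between the lowest values, was 0.732 to 1.19 of wild-type library 1. Where genes share exons the division of fragments between them is uncertain, which holds for 10 of the 42 members.

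A gene entered the test with 0.5 FPKM or more in at least 2 libraries, which 15399 did. The test was limma 3.58.1 under R 4.3.3, run on log2(FPKM + 0.5) with lmFit and eBayes (trend on, 3.05 prior degrees of freedom), and p-values were adjusted over the 15399 genes by Benjamini-Hochberg. Fold changes are mutant minus wild type on this scale, which understates the change of low genes. Intervals are 95% limma intervals and are not adjusted. The script was tested on simulated data. Members were matched by gene name and other genes by Ensembl identifier (22599 of 22770 matched), and gene positions come from GENCODE M21 on GRCm38. The members, the lists of other pathway genes and the cell type markers were chosen with earlier results of these data known. Members past the threshold, with separate groups and a log2 fold change beyond 0.5, or at 20 FPKM or more are given for every library, with other members as space allowed. Of the other pathway genes those past the threshold and the 8 largest changes with separate groups are named, and Porcn, Tle3, Celsr2, Celsr3, Dact1, Ccnd1, Myc, Wnt3, Wnt6, Wnt9a and Rspo4 were added after their values were seen. Alternatives were other pseudocounts, filters and scalings, no trend, a replicate block, and each library left out.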

Additional observations from a re-analysis of the deposited data

How the results depend on the processing

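Both member calls, Sfrp1 and Sfrp2, were kept with a pseudocount of 0.1 or 1, a filter of 1 FPKM and all 3 other scalings, which moved the median of all genes by at most 0.0146 on the log2 scale. With no filter on low values, 0 members and 0 other pathway genes were lower and 2 other pathway genes higher, with 21 genes lower and 40 higher over all genes. Without the mean-variance trend the counts were 0, 0 and 1, with 20 and 34 over all genes. In limma over all libraries 9 members had an unadjusted p under 0.05. Leaving out 1 library left 0 members lower, 0 other pathway genes lower and 0 to 1 higher, and over all genes 1 to 28 lower and 6 to 31 higher, since 1 group then has a single library that is assumed to vary like the other group. The labels do not say that equal replicate numbers pair the libraries, and deviations of same-numbered libraries had a correlation of 0.0492 over 15399 genes. With the replicate block 1 member was lower, Sfrp1, with Sfrp2 at an adjusted p of 0.0660 in limma, and 0 other pathway genes were lower. Of the 402 alternative values of tested members 10 had the other sign, none of them of a called gene and each with 1 library left out. Leaving out each library in turn, the log2 fold change ranged from -0.45 to 0.12 for Wnt2b, from -0.12 to 0.025 for Lrp6, from -0.063 to 0.038 for Ryk, from -0.021 to 0.064 for Apc, from -0.10 to 0.67 for Lef1, from -0.57 to 0.23 for Tcf7, from -0.15 to 0.085 for Tcf7l1, from -0.81 to 0.043 for Tcf7l2 and from -0.029 to 0.44 for Nkd1. The cause was not tested. The 11 members under the filter were not tested. The filter is set on FPKM and takes no account of gene length. Long genes such as Lgr5, with 10264 exon bases, and Fzd5, with 6915, can hold more fragments at the same FPKM.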

Other observations

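Outside the 42 members Wnt6, Wnt9a and Rspo4 were found at low levels with their highest value in mutant library 1. Wnt6 had 0.303 and 0.119 FPKM in the mutants and Rspo4 had 0.260 and 0.0380 FPKM there, both listed at 0 in the wild types. Wnt9a had 0.624 and 0.193 FPKM in the mutants and 0.143 and 0.182 FPKM in the wild types. Wnt3, a ligand that passed the filter, had 0.947 and 0.992 FPKM in the mutants and 0.441 and 0.749 FPKM in the wild types (log2 fold change 0.44, adjusted p = 0.445 in limma). Markers of thalamus, a tissue known to express Tcf7l2, summed to 3.23 and 3.13 FPKM in the mutants and 0.651 and 0.851 FPKM in the wild types, with Gbx2 listed at 0 in 3 libraries.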
